A study of Mus musculus with 7 samples.

Results

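The lysosomal genes of Paneth cells (PCs) were examined in purified PCs of C57BL/6J mice that had been injected with tumor necrosis factor (TNF), a pro-inflammatory cytokine, or with phosphate-buffered saline (PBS) as control. PCs sit at the bottom of the crypts of the small intestine and secrete antimicrobial proteins from large granules. Sorted cells were collected 15 h after injection, and bulk RNA-seq gave 3 PBS and 4 TNF libraries, each from a different mouse according to the series description. All mice were of the same strain and carried no stated genetic change, so the groups differ by the injected agent alone as far as the labels tell. The labels state neither the dose and route of TNF nor the sex and age of the mice or the antibodies of the sort. TNF was injected into the animal, so cells other than PCs may have been exposed as well.

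The set comprised 37 named genes for lysosomal hydrolases and membrane proteins out of 55414 Ensembl identifiers in the count table, and all 37 were found by symbol. Of these, 36 passed the filter on low counts, as did 14329 genes in all. The exception was Ctse (cathepsin E), which had 11 counts over the PBS and 15 counts over the TNF libraries and was not tested. The tested members had between 12 and 10858 counts per library, and no member had 0 counts over a whole group.

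Lysosomes are acidic organelles in which proteins, glycans, lipids and nucleic acids are degraded. Most of their hydrolases are made in the endoplasmic reticulum, receive a mannose 6-phosphate tag in the Golgi and are carried to endosomes by receptors, while a proton pump, the V-ATPase, acidifies the lumen. Many of their genes carry the letters CACGTG near the start site, which the transcription factors TFEB, TFE3 and MITF can bind. PCs hold large secretory granules beside their lysosomes, and the autophagy-lysosome pathway is known to affect these granules.

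Of the 36 tested lysosomal genes, 27 were differentially expressed (DEGs, edgeR adjusted p under 0.05), with 15 higher and 12 lower after TNF. Among all 14329 tested genes, 59.6% were DEGs, 29.5% higher and 30.1% lower, so DEGs were common in these cells at large. The members are described by role, and differences between roles were not tested. Of 9 proteases, 6 rose and 2 fell, whereas of 11 glycosidases and sulfatases 3 rose and 6 fell. Lipid-handling proteins fell more often than they rose (4 against 2 of 8), and of 6 membrane proteins 3 rose and 0 fell. The median log2 fold change was 0.92 for the proteases, -0.48 for the glycosidases and sulfatases, -0.40 for the lipid group and 0.46 for the membrane proteins, beside 0.0017 for all tested genes. These counts held under each of 3 other scalings, except that 1 gene instead of 2 rose in the lipid group with the size factors of DESeq2 and with total counts only. With total counts as the only scaling, the median of all tested genes was -0.16, so changes are given relative to the trimmed mean of M-values (TMM) scaling.

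**Figure D1:**
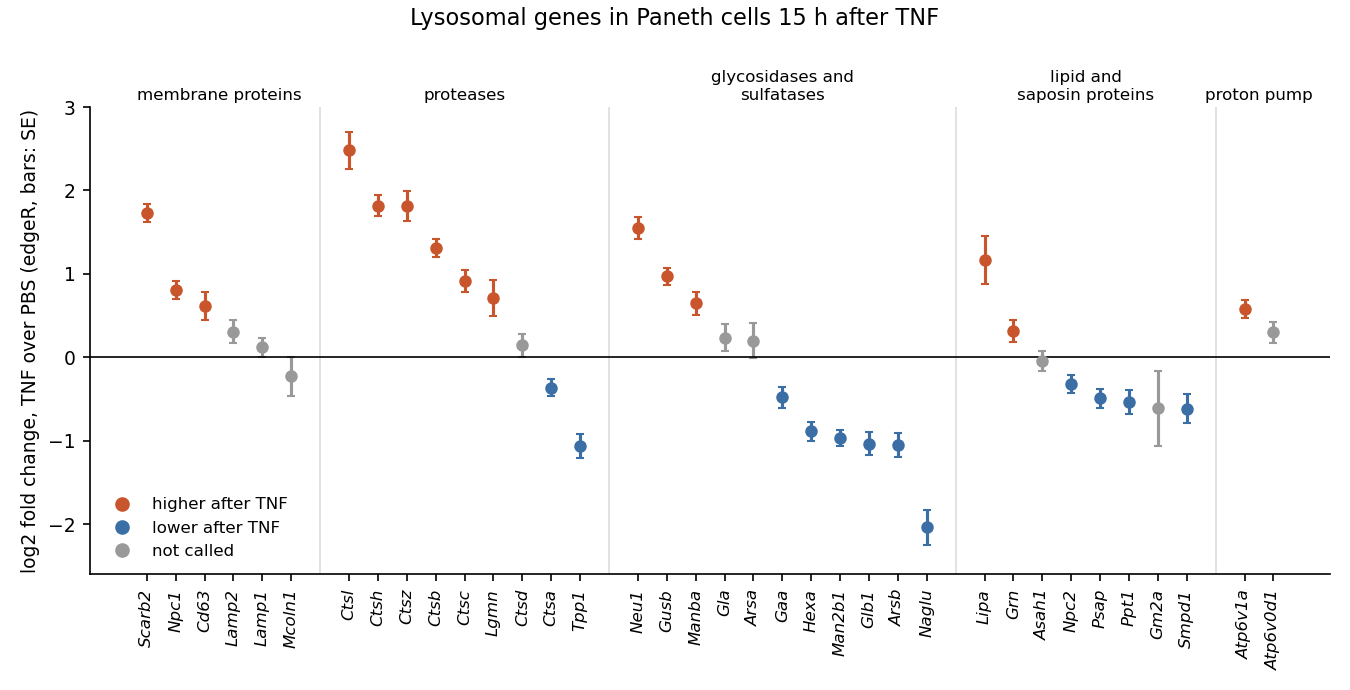
Log2 fold change (TNF over PBS) of the 36 tested lysosomal genes, ordered within 5 roles; points are edgeR estimates from 3 PBS and 4 TNF libraries, bars are standard errors, and colours mark DEGs that were higher or lower and genes not called. Estimates run from 2.48 for Ctsl to -2.04 for Naglu, with most proteases above 0 and 6 glycosidases and sulfatases below it.

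Of the 27 DEGs, 11 changed 2-fold or more, with 7 higher (Ctsl, Ctsh, Ctsz, Scarb2, Neu1, Ctsb and Lipa) and 4 lower (Naglu, Tpp1, Arsb and Glb1). In all tested genes, 31.6% were DEGs with such a change, 14.4% higher and 17.2% lower. The values of the TNF libraries lay above all PBS libraries for 13 members and below them for 12, and the groups overlapped for 11. Over all tested genes, 60.7% did not overlap, 29.9% higher and 30.9% lower. The coefficient of variation between libraries of one group had a median of 15.5% after PBS and 9.16% after TNF over the tested members. It was largest for Gm2a after TNF, at 55%.

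Depth was 15511455 to 19193721 counts per library, and no batch is given in the labels. PC products were abundant in every library, with Lyz1 and a further 12 PC markers adding up to 193479 to 325149 counts per 1000000 (CPM) after PBS and 196912 to 367508 CPM after TNF. Of these 13 markers, Defa21, Defa22 and Mmp7 rose, Kit, Clps, Pnliprp2 and Cd24a fell (edgeR adjusted p under 0.05), and 6 were not called. The summed markers of other epithelial cell types were lower after TNF without overlap of the groups for the 5 lists given here. The sum of 10 enterocyte markers was 513 to 666 CPM after PBS and 102 to 128 CPM after TNF, that of 11 tuft cell markers 1616 to 2720 CPM and 345 to 852 CPM, and that of 11 enteroendocrine markers 37.4 to 101 CPM and 11.6 to 27.7 CPM. Goblet cell markers (10 genes) summed to 11687 to 21160 CPM and 9539 to 11043 CPM, with 1 higher and 6 lower, and stem cell markers (10 genes) to 4424 to 5589 CPM and 2900 to 3722 CPM, with 7 lower. Markers of the duodenal and jejunal position (8 genes) summed to 178 to 215 CPM after PBS and 33.5 to 45.6 CPM after TNF. Those of the ileal position (10 genes) summed to 27.5 to 45.3 CPM and 68.6 to 75.7 CPM, but the list was split. Of 4 tested genes, Hoxb8, Hoxb9 and Slc51b were higher and Osr2 was lower. Most of the rise in the sum lay in Hoxb9 (means of 9.58 and 44.6 CPM) and Hoxb8 (4.26 and 13.9 CPM). Among the genes too low to be tested, Fabp6, Slc51a, Cubn and Hoxa10 had lower means after TNF, and Slc10a2 and Fgf15 higher ones.

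Macrophages are rich in lysosomal hydrolases and were therefore looked for. Of 12 macrophage and monocyte markers, 4 (C1qc, Fcgr1, Cx3cr1 and Cd163) had 0 counts in every library, and Csf1r had 0, 0 and 1 counts in the PBS and 2, 2, 3 and 7 counts in the TNF libraries. The list summed to 14.7 to 20.0 CPM after PBS and 37.1 to 48.3 CPM after TNF, of which Cd14, a co-receptor for lipopolysaccharide that was called higher, made up 3.6 to 5.08 CPM and 27.4 to 32.2 CPM. Mrc1, a mannose receptor, was called higher too, with 17, 3 and 6 counts after PBS and 57, 58, 64 and 44 counts after TNF, whereas the complement gene C1qa was called lower, with 25, 74 and 33 counts and 20, 3, 4 and 0 counts. Of 14 markers of other leukocytes, 7 had 0 counts in every library, and the list summed to 11.4 to 26.2 CPM after PBS and 13.9 to 16.2 CPM after TNF. Within this sum, Ptprc, the pan-leukocyte gene, was called lower (184, 515 and 218 counts after PBS and 130, 106, 238 and 118 counts after TNF), while S100a9, a gene of neutrophils and monocytes, had 0 counts in each PBS library and 103, 116, 60 and 120 counts in the TNF libraries, and S100a8 had 0 counts and 10, 13, 4 and 5 counts. The neutrophil markers Csf3r and Mpo had 0 counts in all 7 libraries. Of 10 stromal and endothelial markers, summing to 2.39 to 2.72 CPM after PBS and 8.18 to 10 CPM after TNF, the endothelial gene Vwf was called higher, with 41, 43 and 41 counts and 170, 152, 147 and 119 counts. The endothelial markers Pecam1, Cdh5 and Kdr were at or near 0, with at most 5 counts in any library. The part of these marker differences in the lysosomal results was not tested, and in bulk samples fewer cells of a type and less RNA per cell cannot be told apart.

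The letters CACGTG were searched in the RefSeq promoter windows of the members, 250 bases before to 50 bases after the start (GRCm38.p6). The motif reads the same on both strands. Windows were found for 32 of the 37 genes, and 13 of these (40.6%) held CACGTG in at least 1 window, beside 8.09% of all genes with a window, 11.7% of those tested here and 7.15% of all windows of this length. The longer form TCACGTGA, which contains CACGTG, was found in 6 members (18.8%), 1.12% of all genes and 2.21% of those tested. The letters CACGTG with GT before and AC after them, which contain both, were found in 0 members, 0.37% of all genes and 0.796% of those tested. By outcome, CACGTG was held by 3 of 12 members that rose, 4 of 12 that fell and 6 of 8 that were not called. A match is a description of the letters and not a measured binding site. The stretches shown cover members of each outcome, with CACGTG in capitals and positions counted from the start site as 0.
Lamp1 (not called, chr8:13159080-13159160, plus strand, first match at -61 and last at -15): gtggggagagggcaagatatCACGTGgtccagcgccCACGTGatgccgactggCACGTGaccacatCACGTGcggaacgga
Mcoln1 (not called, chr8:3500428-3500499, plus strand, matches at -71 and -45): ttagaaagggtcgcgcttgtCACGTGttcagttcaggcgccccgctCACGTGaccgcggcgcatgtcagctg
Ctsd (not called, chr7:142387900-142387945, minus strand, match at -98, with a further match at -245 outside the stretch shown): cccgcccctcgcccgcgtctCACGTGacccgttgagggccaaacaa
Gla (not called, chrX:134601174-134601252, minus strand, matches at -227 and -194): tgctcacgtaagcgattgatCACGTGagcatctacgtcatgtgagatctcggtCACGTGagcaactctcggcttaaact
Naglu (lower, chr11:101070001-101070046, plus strand, match at -73): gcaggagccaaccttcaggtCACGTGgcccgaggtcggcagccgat
Glb1 (lower, chr9:114401010-114401055, plus strand, match at -48): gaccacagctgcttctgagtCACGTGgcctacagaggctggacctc
Ctsl (higher, chr13:64370731-64370770, minus strand, match at -236): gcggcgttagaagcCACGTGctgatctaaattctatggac
Atp6v1a (higher, chr16:44139365-44139410, minus strand, match at -131): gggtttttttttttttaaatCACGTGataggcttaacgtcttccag
Lamp1, with 4 matches in 81 bases, had the most.

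Membrane proteins were examined first among the members. Gene positions from here on are those of GRCm39, and levels are CPM on TMM-scaled library sizes. Lamp1 and Lamp2 encode the main glycoproteins that line the lysosomal membrane. Lamp1 (ENSMUSG00000031447, chromosome 8, 13209121 to 13227360) had 381, 335 and 319.7 CPM in the PBS libraries and 341, 380.4, 373 and 404 CPM in the TNF libraries. These ranges overlapped, and the log2 fold change of 0.12 ± 0.11 (SE) was not called (edgeR adjusted p = 0.373) and changed sign with total-count scaling (-0.043). The exons of Lamp1 share 2564 bases with those of Grtp1 on the other strand, which was lower after TNF (-1.95), and whether the counting used strand is not stated in the labels. Lamp2 (ENSMUSG00000016534, chromosome X, 37488520 to 37545340) had 367, 292 and 281 CPM after PBS and 326, 387, 372 and 464 CPM after TNF. Its lowest TNF library lay below its highest PBS library, and the log2 fold change of 0.31 ± 0.14 missed the threshold (edgeR adjusted p = 0.0698). It passed without PBS replicate 1 (0.44), without TNF replicate 1 (0.38) and without the filter on low counts (0.31).

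In contrast to Lamp1 and Lamp2, the membrane protein gene Scarb2 rose 3.32-fold. It encodes LIMP-2, which carries the enzyme glucocerebrosidase to the lysosome. Scarb2 (ENSMUSG00000029426, chromosome 5, 92589169 to 92654692) had 129.9, 129 and 114 CPM after PBS and 387, 424, 398 and 443 CPM after TNF. Every TNF library was thus far above every PBS library (log2 fold change 1.73 ± 0.11 (SE), edgeR adjusted p = 1.9e-08). Npc1, which exports cholesterol from the lysosome, had 26 ± 1.01 CPM after PBS (SD, n = 3) and 45.4 ± 2.75 CPM after TNF (SD, n = 4), a rise of 0.81 ± 0.11 on the log2 scale (edgeR adjusted p = 2.16e-05). Cd63, a tetraspanin of late endosomes, lysosomes and secretory granules, had means of 184 ± 45 CPM and 282 ± 39.8 CPM and rose as well (0.62 ± 0.17, edgeR adjusted p = 0.00609). Mcoln1, the gene of the lysosomal calcium channel TRPML1, was not called and had 13.3 to 20.4 CPM after PBS and 8.89 to 17.8 CPM after TNF. The exons of Npc1 share 1086 bases with those of Rmc1 on the other strand, which had a log2 fold change of 0.11.

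**Figure D2:**
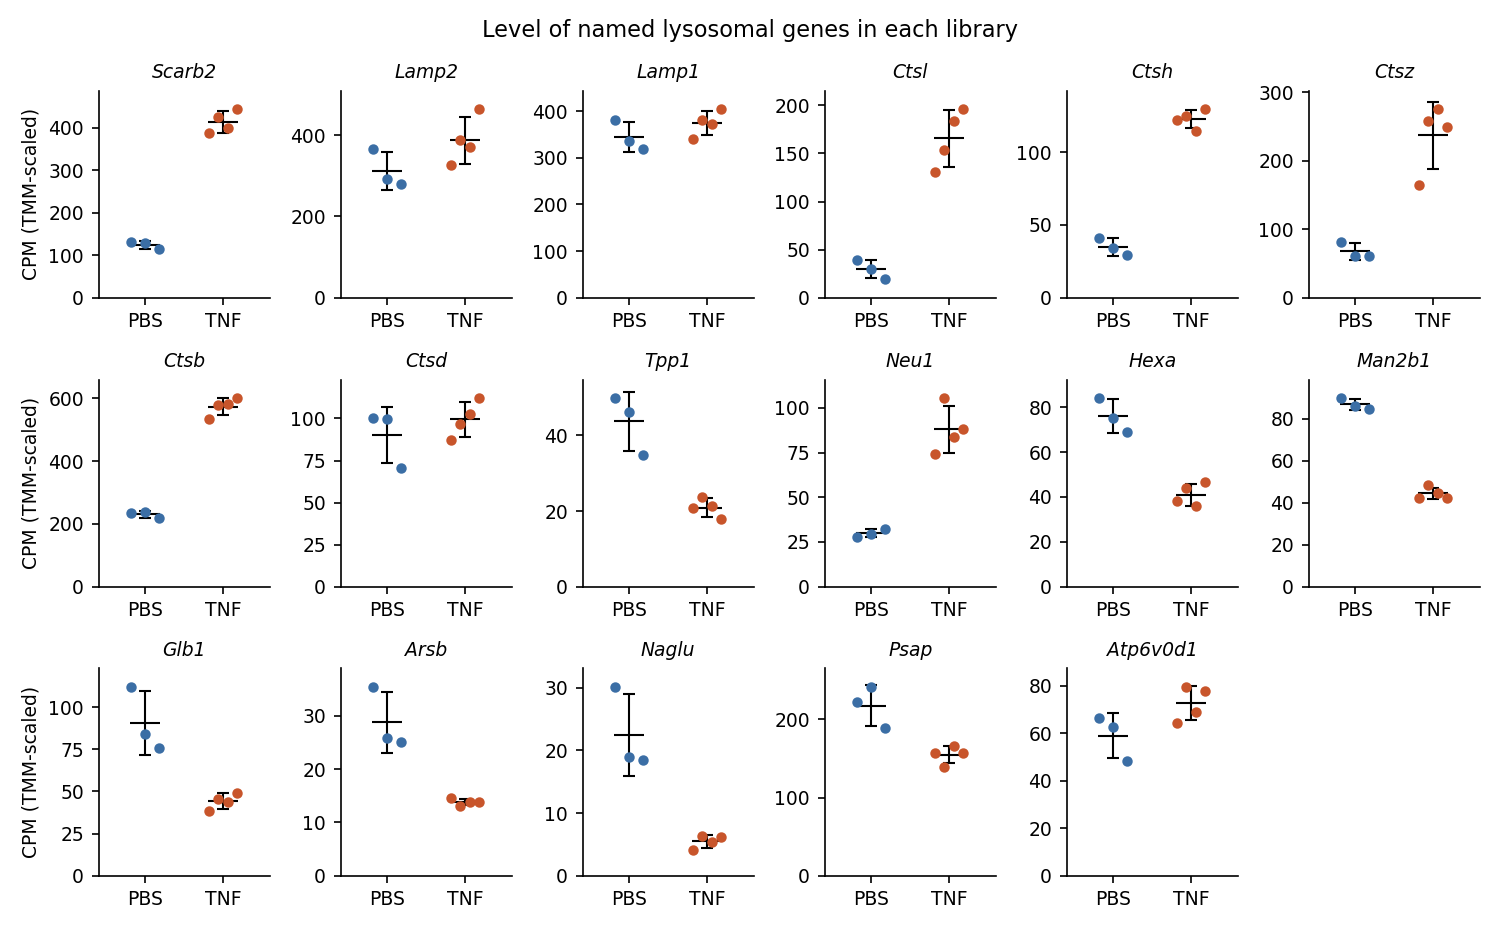
CPM (TMM-scaled, vertical axes from 0) of 17 lysosomal genes in each of 3 PBS and 4 TNF libraries; each point is 1 library, the horizontal line the group mean and the bar the SD. The groups overlap for Lamp1, Lamp2, Ctsd and Atp6v0d1 and lie apart for the other genes.

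The proteases held the largest rises of the set. Ctsl encodes cathepsin L, a cysteine endopeptidase. Ctsl (ENSMUSG00000021477, chromosome 13, 64507151 to 64518704) had 39, 30.2 and 19.9 CPM in the PBS libraries and 131, 154, 183 and 196 CPM in the TNF libraries. The lowest TNF value was over 3 times the highest PBS value, and the rise was 5.59-fold (log2 fold change 2.48 ± 0.22 (SE), edgeR adjusted p = 3.06e-06, 2.26 to 2.73 when libraries were left out in turn). Ctsh encodes cathepsin H, mainly an aminopeptidase. Ctsh (ENSMUSG00000032359, chromosome 9, 89936205 to 89958148) had 41.3, 34 and 29.3 CPM after PBS and 122, 125, 115 and 129 CPM after TNF. The groups were wide apart, with a log2 fold change of 1.82 ± 0.12 (edgeR adjusted p = 3.66e-08).

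Ctsz encodes the carboxypeptidase cathepsin Z. Ctsz (ENSMUSG00000016256, chromosome 2, 174267304 to 174280832) had 81.6, 60.6 and 60.3 CPM after PBS and 165, 258, 275 and 249 CPM after TNF. TNF replicate 1 was the lowest of its group but remained above every PBS library, and the log2 fold change was 1.81 ± 0.18 (edgeR adjusted p = 2.32e-06). Its exons overlap those of Nelfcd on the other strand, which had a log2 fold change of 0.027. Ctsb encodes cathepsin B, a cysteine protease with both endopeptidase and carboxypeptidase activity. Ctsb (ENSMUSG00000021939, chromosome 14, 63358384 to 63383372) had 236, 237.5 and 218 CPM after PBS and 534, 578, 581 and 599.7 CPM after TNF. All 4 TNF libraries were above all PBS libraries, and the rise was 2.49-fold (log2 fold change 1.32 ± 0.11, edgeR adjusted p = 1.97e-07). Fdft1, which shares 1184 exonic bases with Ctsb on the other strand, rose by less (log2 fold change 0.48).

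The remaining proteases changed less. Ctsc, whose product cathepsin C activates serine proteases of granules, had 95.2 ± 21.1 CPM after PBS (SD, n = 3) and 180.0 ± 7.53 CPM after TNF (SD, n = 4), a rise of 0.92 ± 0.13 on the log2 scale (edgeR adjusted p = 4.1e-05). Lgmn, the gene of the asparaginyl endopeptidase legumain, rose as well (0.71 ± 0.21, edgeR adjusted p = 0.015), although the highest PBS library (130.4 CPM) was above the lowest TNF library (129 CPM). Ctsd encodes cathepsin D, the main aspartic protease of lysosomes. Ctsd (ENSMUSG00000007891, chromosome 7, 141929646 to 141941775) had 100.3, 99.6 and 70.8 CPM after PBS and 86.9, 96.7, 103 and 112 CPM after TNF. The groups overlapped, and the log2 fold change of 0.14 ± 0.13 was not called (edgeR adjusted p = 0.377) and was -0.013 with total-count scaling and -0.0067 without PBS replicate 3. Tpp1, which encodes tripeptidyl peptidase 1, was 1 of the 2 proteases that fell. Tpp1 (ENSMUSG00000030894, chromosome 7, 105394018 to 105401481) had 49.8, 46.3 and 35 CPM after PBS and 20.9, 23.7, 21.4 and 17.8 CPM after TNF, with no overlap and a log2 fold change of -1.06 ± 0.14 (edgeR adjusted p = 2.18e-05). The other was Ctsa, described with its partner enzymes.

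Among glycosidases and sulfatases, Naglu showed the strongest fall of the whole set. It encodes alpha-N-acetylglucosaminidase, an enzyme of heparan sulfate degradation. Naglu (ENSMUSG00000001751, chromosome 11, 100960838 to 100968517) had 30.1, 18.9 and 18.5 CPM after PBS and 4.14, 6.3, 5.3 and 6.14 CPM after TNF. The groups were apart, and the log2 fold change was -2.04 ± 0.21 (SE, edgeR adjusted p = 2.06e-06). Set beside it were 4 of the other heparan sulfate enzymes, which were outside the 37 genes and were chosen after their values were seen, so they do not stand for the whole pathway. Sgsh, Ids and Idua fell by 0.98 ± 0.15, 0.90 ± 0.15 and 1.72 ± 0.23 on the log2 scale (edgeR adjusted p = 5.68e-05, 0.000176 and 2.23e-05). Hgsnat was not called (-0.21 ± 0.14, edgeR adjusted p = 0.21).

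Arsb, the sulfatase of dermatan and chondroitin sulfate, fell too. Arsb (ENSMUSG00000042082, chromosome 13, 93907903 to 94079528) had 35.3, 25.9 and 25.1 CPM after PBS and 14.5, 13.1, 13.9 and 13.9 CPM after TNF. The TNF libraries were close together and below each PBS library (log2 fold change -1.05 ± 0.15, edgeR adjusted p = 2.77e-05). Man2b1 encodes the acid alpha-mannosidase that trims N-glycans. Man2b1 (ENSMUSG00000005142, chromosome 8, 85809885 to 85825361) had 89.8, 86.3 and 84.6 CPM after PBS and 42.2, 48.3, 44.7 and 42.4 CPM after TNF. Both groups were narrow and apart (log2 fold change -0.97 ± 0.10, edgeR adjusted p = 1.4e-06). The beta-mannosidase gene Manba moved the other way, from 13.6 ± 1.13 CPM to 21.2 ± 1.49 CPM (0.64 ± 0.14, edgeR adjusted p = 0.00101).

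Hexa encodes the alpha subunit of beta-hexosaminidase, which acts with the GM2 activator to degrade the ganglioside GM2. Hexa (ENSMUSG00000025232, chromosome 9, 59446818 to 59474021) had 84, 75.3 and 68.8 CPM after PBS and 38, 43.9, 36 and 46.5 CPM after TNF. All TNF libraries were below the PBS libraries, with a log2 fold change of -0.89 ± 0.12 (edgeR adjusted p = 1.96e-05). Gm2a, the activator gene, was low and variable, with 3.64 to 5.14 CPM after PBS and 0.707 to 3.91 CPM after TNF, and was not called (-0.61 ± 0.45, edgeR adjusted p = 0.258).

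The sialidase Neu1, the beta-galactosidase Glb1 and the carboxypeptidase Ctsa form a complex in the lysosome in which Ctsa protects the other enzymes. Their mRNAs did not move together. Neu1 (ENSMUSG00000007038, chromosome 17, 35150165 to 35156292) had 27.9, 29.6 and 32.4 CPM after PBS and 74.3, 105, 83.8 and 88.4 CPM after TNF. This was a 2.93-fold rise without overlap (log2 fold change 1.55 ± 0.13, edgeR adjusted p = 2.35e-07). The exons of Neu1 overlap those of the long non-coding gene 1110038B12Rik on the other strand by 431 bases, and that gene rose by 1.29 on the log2 scale, so their reads may not be fully separate. Glb1 (ENSMUSG00000045594, chromosome 9, 114230144 to 114303966) had 112, 84.1 and 76 CPM after PBS and 38.1, 45.7, 43.9 and 49.2 CPM after TNF. It fell in every TNF library relative to every PBS library (-1.04 ± 0.14, edgeR adjusted p = 1.73e-05). Tmppe, which overlaps Glb1 on the same strand, had a log2 fold change of -1.02. Ctsa was lower as well, at 117 ± 11.3 CPM after PBS (SD, n = 3) and 90.9 ± 5.5 CPM after TNF (SD, n = 4), with a log2 fold change of -0.37 ± 0.10 (edgeR adjusted p = 0.00683).

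For the other members of this group, Gusb, the gene of beta-glucuronidase, had 34.3 ± 2.9 CPM after PBS and 67.1 ± 2.48 CPM after TNF, which was higher (0.97 ± 0.10, edgeR adjusted p = 2.8e-06). Its exons share 640 bases with those of Vkorc1l1 on the other strand, which had a log2 fold change of -0.78. Gaa, which encodes the acid alpha-glucosidase that degrades glycogen, fell by 0.48 ± 0.13 on the log2 scale (edgeR adjusted p = 0.00452). Gla (alpha-galactosidase) and Arsa (arylsulfatase A) were not called, with log2 fold changes of 0.24 ± 0.16 and 0.20 ± 0.22 (edgeR adjusted p = 0.221 and 0.44). Gla passed the threshold without PBS replicate 1 (0.43). Arsa was low, at 4.98 to 7.01 CPM over all libraries.

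Among lipid-handling proteins, Psap had the highest level per kilobase of transcript. It encodes prosaposin, the precursor of 4 activator proteins of sphingolipid hydrolases. Psap (ENSMUSG00000004207, chromosome 10, 60113431 to 60138380) had 222, 241 and 189 CPM after PBS and 157, 139, 165 and 157 CPM after TNF. The groups did not overlap, and the log2 fold change was -0.49 ± 0.11 (SE, edgeR adjusted p = 0.00161). Ppt1, a thioesterase that removes palmitate from proteins, and Smpd1, the acid sphingomyelinase, fell by 0.53 ± 0.15 and 0.62 ± 0.17 on the log2 scale (edgeR adjusted p = 0.00641 and 0.00705). The exons of Ppt1 (mean of 39.9 CPM over all libraries) share 203 bases with those of Cap1 on the other strand. Cap1 had a mean of 251 CPM and a log2 fold change of 0.50. The call of Smpd1 was lost without PBS replicate 1 (-0.40). Npc2, which hands cholesterol to Npc1, fell from 72.4 ± 10.2 CPM to 58.1 ± 1.66 CPM (-0.32 ± 0.11, edgeR adjusted p = 0.0209), which was no longer called without PBS replicate 1 (-0.20) or TNF replicate 2 (-0.31). Isca2, which shares 593 exonic bases with Npc2 on the other strand, had a log2 fold change of 0.99.

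Lipa, the gene of lysosomal acid lipase, rose from a low level of 2.84, 3.92 and 6.04 CPM to 6.37, 9.01, 11.3 and 11.8 CPM. The nearest libraries of the groups were close, and the log2 fold change was 1.16 ± 0.29 (edgeR adjusted p = 0.00326). Grn, which encodes progranulin, had overlapping groups (54.5 to 73.2 CPM after PBS and 69.6 to 90 CPM after TNF) and a small change that just passed the threshold (0.32 ± 0.13, edgeR adjusted p = 0.0473). Grn was no longer called when PBS replicate 3 (0.19) or any of TNF replicates 2 (0.29), 3 (0.26) and 4 (0.30) was left out. Asah1, the acid ceramidase, had 84.1 to 110.5 CPM after PBS and 89 to 106 CPM after TNF and was not called (-0.045 ± 0.12, edgeR adjusted p = 0.756).

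The proton pump was represented by a subunit of each sector. Atp6v1a, the catalytic subunit of the cytosolic sector, had 62.8 ± 6.59 CPM after PBS and 94 ± 6.17 CPM after TNF, a rise of 0.58 ± 0.11 (edgeR adjusted p = 0.000334). Naa50, which overlaps its exons on the other strand, rose by 0.75. Atp6v0d1 (ENSMUSG00000013160, chromosome 8, 106251086 to 106292747), of the membrane sector, had 66.4, 62.5 and 48.3 CPM after PBS and 64.3, 79.4, 69 and 77.9 CPM after TNF. One TNF library lay within the PBS range, and the log2 fold change of 0.30 ± 0.13 missed the threshold (edgeR adjusted p = 0.0558). It passed without PBS replicate 1 (0.39), without TNF replicate 1 (0.35) and without the filter on low counts (0.30).

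The division of lysosomal reads among the roles was compared between libraries. All 37 genes together held 0.300 to 0.319% of the counts of a PBS library and 0.377 to 0.413% of those of a TNF library. Within this total, proteases took 26.7 to 28.6% after PBS and 38.6 to 41.0% after TNF. Glycosidases and sulfatases took 14.5 to 15.9% after PBS and 8.66 to 9.71% after TNF. The lipid group took 17.5 to 19.1% and 10 to 11.8%. These 3 ranges did not overlap between the groups, while those of the membrane proteins (33.4 to 35.2% and 35.0 to 37.8%) and the proton pump genes (3.98 to 4.43% and 3.9 to 4.17%) did. These shares are given as a description, since they sum genes of known direction.

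**Figure D3:**
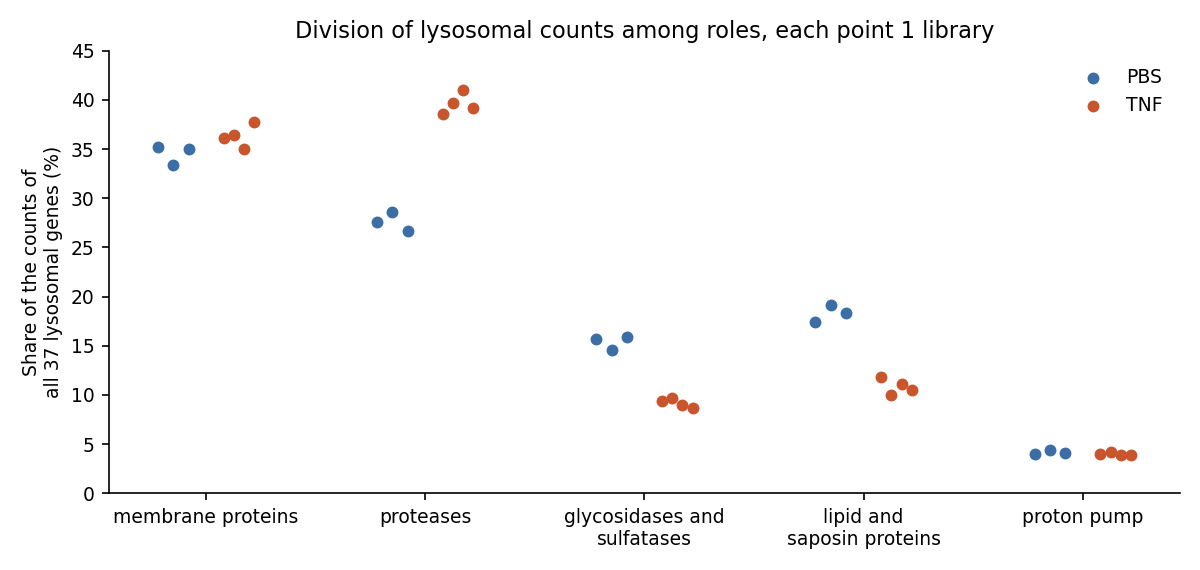
Share (%, vertical axis from 0) of the counts of all 37 lysosomal genes that fell to each of 5 roles, with 1 point per library (3 PBS, 4 TNF). Protease shares are 26.7 to 28.6% after PBS and 38.6 to 41.0% after TNF, and the shares of glycosidases with sulfatases and of the lipid group are lower in every TNF library than in any PBS library.

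Levels were compared between genes only per kilobase of the Ensembl canonical transcript. Lamp2, Lamp1 and Cd63 were highest after PBS, at 176, 134 and 133 CPM per kilobase, followed by Psap (82.1), Ctsb (48.2) and Ctsd (42.4). After TNF, Lamp2 (218) and Cd63 (204) were followed by Lamp1 (146), Ctsb (120.0) and Scarb2 (87.9). This order depends on the transcript model. With all annotated exons merged as the length, Psap came first (68.1) and Lamp2 sixth (24.7) after PBS, and Ctsb first (74.7) after TNF.

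Other genes of the lysosomal pathway were examined in 6 lists of genes outside the 37. Of 112 tested genes, 70 were DEGs (62.5%, beside 59.6% of all tested genes), 32 higher and 38 lower, with a median log2 fold change of -0.049. The MiT/TFE transcription factors and the mTORC1 platform, which senses nutrients on the lysosome, had 6 higher and 6 lower DEGs among 15 (80%). Tfeb, a main activator of lysosomal genes, had 12.4, 9.05 and 10.5 CPM after PBS and 7.49, 9.24, 5.56 and 6.67 CPM after TNF. Its groups overlapped, and a log2 fold change of -0.56 ± 0.21 (edgeR adjusted p = 0.035) was not called when PBS replicate 1 (-0.44) or 3 (-0.57) or TNF replicate 3 (-0.46) or 4 (-0.52) was left out, nor with the replicate number as a block (-0.54). Its relative Tfe3 had 26.5, 22.5 and 24.4 CPM after PBS and 39.5, 49.6, 49.9 and 38.7 CPM after TNF. The groups of Tfe3 were apart (log2 fold change 0.86 ± 0.13, edgeR adjusted p = 6.98e-05). Mitf was not called (-0.24 ± 0.27, edgeR adjusted p = 0.454). Of the platform, Lamtor5, a subunit of its Ragulator anchor, rose by 1.21 ± 0.16 (edgeR adjusted p = 2.51e-05). Slc38a9, an arginine sensor of the lysosomal membrane, fell by 1.74 ± 0.25 on the log2 scale (edgeR adjusted p = 4.56e-05).

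Of 14 genes for mannose 6-phosphate tagging and enzyme sorting, 3 rose and 7 fell (71.4% DEGs, beside 59.6% of all tested genes). The receptors for tagged enzymes differed in direction. M6pr, the cation-dependent receptor, had 141, 129 and 123 CPM after PBS and 235, 263, 248 and 268 CPM after TNF, a rise without overlap (log2 fold change 0.96 ± 0.10, edgeR adjusted p = 3.05e-06). Igf2r, the cation-independent receptor, had 352, 288 and 331 CPM after PBS and 129, 119.5, 138 and 130.1 CPM after TNF. Every TNF library was below every PBS library (-1.33 ± 0.11, edgeR adjusted p = 1.56e-07). Sort1, the gene of the sorting receptor sortilin, had 771 ± 90.4 CPM after PBS (SD, n = 3) and 296 ± 14 CPM after TNF (SD, n = 4), with a log2 fold change of -1.38 ± 0.11 (edgeR adjusted p = 2.28e-07).

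Of 18 other V-ATPase genes, 10 rose and 0 fell, with 8 not called and a median log2 fold change of 0.39. The share of DEGs was 55.6%, beside 59.6% of all tested genes (29.5% higher and 30.1% lower). Under the other scalings 8 to 10 were higher and 0 lower. The largest rise among those with at least 10 CPM was that of Atp6v0e, a small subunit of the membrane sector, which went from 19 ± 2.32 CPM to 47.4 ± 6.12 CPM (1.32 ± 0.14, edgeR adjusted p = 2.11e-06). Atp6v0a4, a tissue-restricted isoform of a membrane-sector subunit that was chosen after its values were seen, had 0, 1 and 0 counts in the PBS libraries. It had 146, 106, 100 and 87 counts in the TNF libraries (edgeR adjusted p = 9.54e-08).

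Of 31 other hydrolases, 4 rose and 14 fell (58.1% DEGs, beside 59.6% of all tested genes), with a median of -0.38. Ctss, which encodes the cysteine protease cathepsin S and is abundant in antigen-presenting cells, had 6.2 ± 0.868 CPM after PBS and 21.7 ± 1.4 CPM after TNF, a rise (1.80 ± 0.16, edgeR adjusted p = 4.12e-07). Pcyox1, a prenylcysteine oxidase, fell by 1.63 ± 0.11 on the log2 scale (edgeR adjusted p = 3.45e-08). Other lysosomal membrane proteins had 6 higher and 11 lower DEGs among 28 (60.7%), and their median of 0.12 turned to -0.040 with total-count scaling. The largest changes were those of Litaf, a protein of late endosomes (1.80 ± 0.14, edgeR adjusted p = 1.17e-07), and Abca2, a lipid transporter (-1.84 ± 0.17, edgeR adjusted p = 6.97e-07).

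Among 6 tested protease inhibitors, 3 rose and 0 fell, or 1 with total-count scaling. The share of DEGs was 50%, beside 59.6% of all tested genes. Serpinb6a, a serpin of the cytosol, had 94.4, 84.4 and 69.8 CPM after PBS and 362, 435, 409 and 489.7 CPM after TNF, a 5.12-fold rise (log2 fold change 2.35 ± 0.14, edgeR adjusted p = 1.24e-08). Cstb, which encodes the cysteine cathepsin inhibitor cystatin B and was chosen after its values were seen, had 14.9, 14.8 and 9.22 CPM after PBS and 43.4, 51.3, 57.7 and 66 CPM after TNF. Cstb rose by 2.08 ± 0.19 on the log2 scale (edgeR adjusted p = 9.74e-07). Ctsb, Ctsh and Ctsl, whose products cystatin B can inhibit, rose by the values given above. Cst3, which encodes cystatin C and was also chosen after its values were seen, had means of 67.4 CPM after PBS and 58.1 CPM after TNF. It was not called (-0.21 ± 0.14, edgeR adjusted p = 0.214). A link between inhibitors and proteases was not tested.

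**Figure D4:**
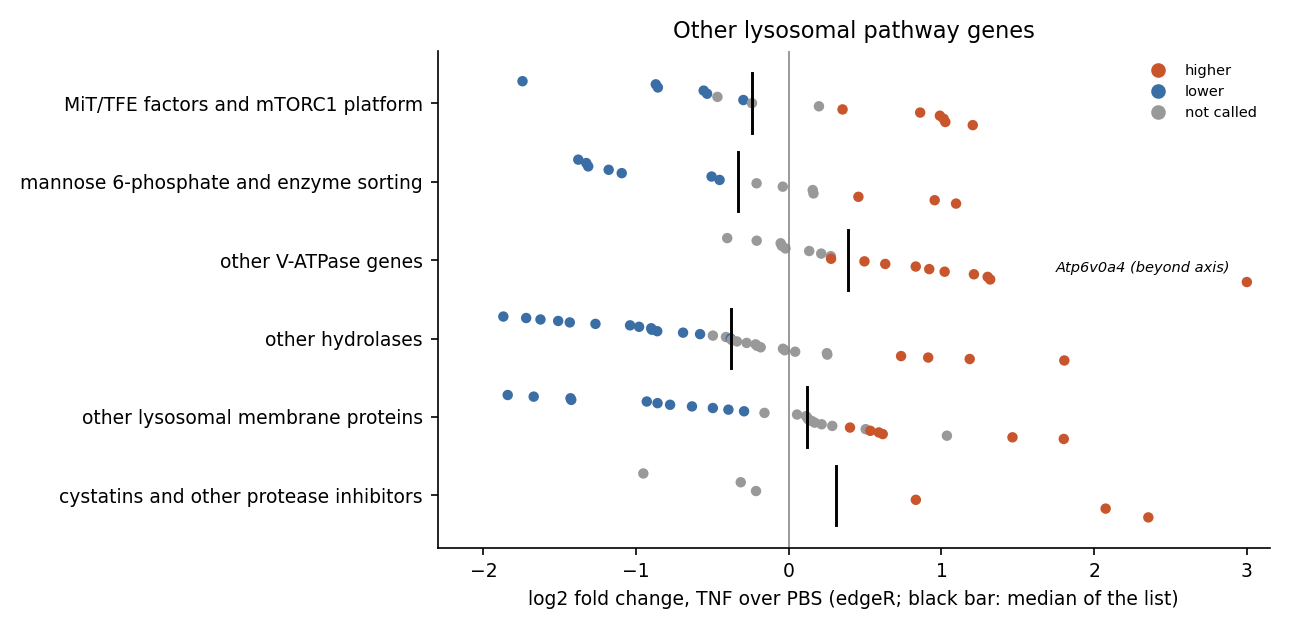
Log2 fold change (TNF over PBS, horizontal axis) of 112 tested genes in 6 other lysosomal lists, 1 point per gene, coloured as higher, lower or not called, with a black bar at the median of each list. No V-ATPase gene was called lower, whereas 14 of 31 other hydrolases were, beside 30.1% of all tested genes. Atp6v0a4 lies beyond the axis.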

How the data were processed

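The authors deposited raw counts, whole numbers of reads per Ensembl gene and library. The submitters' processing notes name FastQC, Trimmomatic 0.39, STAR 2.7.10a, DESeq2 and the builds mm10 and mm39. The labels do not state the counting program, the annotation or whether strand was used, so overlapping genes are uncertain. Symbols, positions and transcript lengths came from GENCODE M39 (GRCm39), which held 54749 of 55414 identifiers.

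The deposited counts were tested in R 4.3.3 with edgeR 4.0.16 by its two-sided quasi-likelihood test, on all 7 libraries with the group as the only term, after filterByExpr and TMM scaling and with robust dispersions, with Benjamini-Hochberg adjustment over 14329 genes. SEs were derived from the fitted change and F statistic. The method was tested on simulated data. A DEG has an adjusted p under 0.05.

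The members and lists were chosen with earlier results of these data known. Levels are CPM, counts per 1000000 of the TMM-scaled library size. Values per library are given for the 6 members that rose most, the 6 that fell most, the most abundant per kilobase of each role, 3 abundant members not called, and Lamp1, Lamp2, Ctsb, Ctsd and Ctsl. From other lists, the gene with the largest rise and fall (mean of at least 10 CPM) was named, plus Tfeb, Tfe3, Mitf, M6pr and Igf2r. Genes marked as chosen after their values were seen fall outside this rule. Some genes of the other lists, including 1 that this rule names, are counted but not reported here by name.

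Alternatives were other scalings (size factors of DESeq2 1.42.0, total counts, TMM without alpha-defensins and Lyz1), other filters, the DESeq2 test, a replicate block, leaving out each library and a 2-fold minimum.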

Additional observations from a re-analysis of the deposited data

Results flagged for a closer look

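In the TNF group, the highest and lowest library of each of the 36 tested lysosomal genes were compared with the other libraries by Dixon's ratio. A library stood apart for 2 genes, which is close to the rate of about 1 in 20 that chance gives. Both times the library was TNF replicate 1, and the genes share the same 4 libraries, so they are not independent. Ctsa had 82.7 CPM in this library and 92.9 to 94.4 CPM in the other TNF libraries. Atp6v1a had 84.8 CPM in this library and 96.5 to 97.5 CPM in the others. The PBS group, with 3 libraries, was too small for this comparison.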

How the results depend on the processing

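Of 504 single-member results under alternatives, 481 kept their direction and their side of the threshold, and 24 of the 27 member DEGs kept their call under all 14 fits (the exceptions were Npc2, Smpd1 and Grn). The sign changed for Lamp1 (-0.043) and Ctsd (-0.013) with total-count scaling, and, with libraries left out in turn, within the ranges of Ctsd (-0.0067 to 0.22), Asah1 (-0.16 to 0.033) and Mitf (-0.43 to 0.096), none of which was called. With the replicate block, Npc2 (adjusted p = 0.0721) and Tfeb (0.114) lost their calls, and Grn with the block (0.139), DESeq2 size factors (0.056), the DESeq2 test (0.0616) and total counts (0.311). The cause was not tested. A minimum of 2-fold left 11 member DEGs (7 higher, 4 lower), 32 in the other lists (15 higher, 17 lower) and 4530 among all genes (2065 higher, 2465 lower), by construction. Leaving out each library gave 25 to 29 member DEGs. Same-numbered libraries of the groups did not deviate together (correlations -0.299, -0.0314 and -0.174). These values cannot exclude a pairing of the mice, since the unlike-numbered PBS replicate 3 and TNF replicate 1 reached 0.35. The replicate block, in which TNF replicate 4 has no partner, gave 25 member DEGs, 61 in the other lists and 7131 among all genes. The lowest count of a tested member in a library was 12.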
